A study of Mus musculus with 16 samples.

Results

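The comparison described here is a difference of differences: how far the effect of an active form of the transcription factor CREB on hippocampal mRNA at 3 weeks of transgene induction departed from its effect at 1 week. The effect at each time is the log2 value in VP16-CREB mice minus that in their own control littermates, and the difference is the effect at 3 weeks minus the effect at 1 week. The arrays that enter it were chosen by their sample labels and number 10 of the 16 in the series, 6 at 3 weeks and 4 at 1 week. All arrays carried total RNA from the hippocampus of C57BL/6J mice. Each array measured a pool of 3 to 4 mice of the same age, sex and genotype.

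CREB binds the cAMP response element (CRE), a short DNA site in promoters of genes that respond to neuronal activity, and recruits coactivators once it is phosphorylated. VP16-CREB joins CREB to a viral activation domain, so that it drives such genes without phosphorylation. The transgenic mice carry tetO-VP16-CREB and are described as bitransgenic: doxycycline (dox) keeps the transgene silent, and its removal from the diet allows expression. The labels do not name the driver. In published mice of this design it is the tetracycline transactivator under the CaMKII alpha promoter, which is active in forebrain excitatory neurons.

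The late groups were 3 pools of tetO-VP16-CREB mice and 3 pools of wild-type control littermates, aged 6 weeks and off dox for 3 weeks. The early groups were 2 pools of tetO-VP16-CREB mice and 2 pools of wild-type littermates, aged 3 weeks and off dox for 1 week. Controls were also raised on dox and taken off it. Weeks of induction, age, litters and array cohort changed together, so that their parts in a difference between the times cannot be told apart. The other 6 arrays (A-CREB mice and littermates) served only to estimate the spread. In bulk tissue, a change in the number of cells of a type cannot be told apart from a change in RNA per cell.

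The array values are intensities, scaled by the authors to a common trimmed mean. The median intensity per array was 119 to 129 in the late cohort and 80.0 to 93.2 in the early cohort, and values under 50 made up 30.2 to 33.4% of probe sets in the late arrays and 38.5 to 42% in the early ones. Low readings thus differed between the cohorts in controls as well. So did Malat1, a nuclear noncoding RNA, whose probe set 1438403_s_at read 108 and 177 in early and 11855, 15300 and 9888 in late controls. Early control pool 2 had a ratio of 3' to 5' actin signal of 2.004, against 1.365 to 1.61 in the other 9 arrays. The part of these differences in the results was not tested. Defining hippocampal markers were present in all pools. Prox1, a dentate granule cell factor, read 213 and 263 in early and 413, 368 and 372 in late controls, Wfs1, a CA1 marker, read 2627 and 2609.9 and 2058, 1977 and 2106, and Grik4, a CA3 marker, read 285 and 289 and 294, 412 and 240.4.

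The transgene itself was on at both times. Of 5 Creb1 probe sets tested, 2 were higher at both times. That of larger effect measured 5.38 and 36.4 in the control pools and 735 and 991 in the VP16-CREB pools at 1 week, and 67.3, 32.2 and 61.2 against 1139.9, 1097 and 1266 at 3 weeks. The pools did not overlap at either time. The effect was 5.01 ± 0.55 (log2 ± SE) at 1 week and 4.26 ± 0.45 at 3 weeks, with adjusted p from limma of 0.00143 and 6.1e-05. The difference was -0.76 (95% interval -2.28 to 0.76), so the interval reaches from a smaller to a larger effect at 3 weeks. The other, 1452529_a_at, gave 2.81 and 2.27. The remaining 3 Creb1 probe sets had effects between -0.22 and 0.19 and were not called.

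At 1 week the small set of genes called higher in VP16-CREB mice included Pdyn, microglial and macrophage genes, reactive astrocyte genes, and single MHC and interferon genes such as H2-Ab1 and Gbp2. At 3 weeks each of these groups gave many more calls, complement genes were called higher, and dentate granule neuron genes were lower. Of 27044 probe sets tested, 59 were higher and 5 lower at 1 week (0.218% and 0.0185%), and 886 were higher and 176 lower at 3 weeks (3.28% and 0.651%, or 3.93% in either direction), at an adjusted p under 0.05. The effect at 1 week rests on 2 pools against 2, so its intervals are wider and the counts are not a measure of size alone. Only 1 probe set, unnamed, was called for the difference of effects (0.0037%). An unadjusted p under 0.05 for the difference was reached by 1349 probe sets, 4.99%, about the share that this threshold passes when nothing differs. Of these, 833 had a positive and 516 a negative difference. The 3-week count was 584 without late VP16-CREB pool 3, 675 without late control pool 1 or VP16-CREB pool 2 and 706 without late control pool 3, and the 1-week count was 16 and 39 without early VP16-CREB pools 1 and 2 and 38 without early control pool 2. The count of difference calls depended on the scaling: a pseudocount of 100 in place of 10 gave 29 calls, 28 of them positive, and quantile normalization gave 21, 18 of them positive. Without early VP16-CREB pool 2 it was 5.

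The calls at 1 week were mostly contained in those at 3 weeks. Of the 64 probe sets called at 1 week, 51 were also called at 3 weeks with the same sign, all of them higher. This count was 12 to 32 when any of the 4 early arrays was left out. The 51 make up 86.4% of the 59 higher at 1 week and 5.76% of the 886 higher at 3 weeks. Among the 886, the effect at 1 week was positive for 92.7%, against 59.8% of all probe sets with the same sign at both times, and the median effect was 0.52 at 1 week and 1.26 at 3 weeks. Among the 176 lower at 3 weeks, 87.5% were negative at 1 week, with medians of -0.30 and -0.84. These probe sets were selected at 3 weeks, which by itself favours a larger size there. Across all probe sets, the effects at the separate times had a Pearson correlation of 0.38. The 1 and 3 week comparisons share no arrays.

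**Figure D1:**
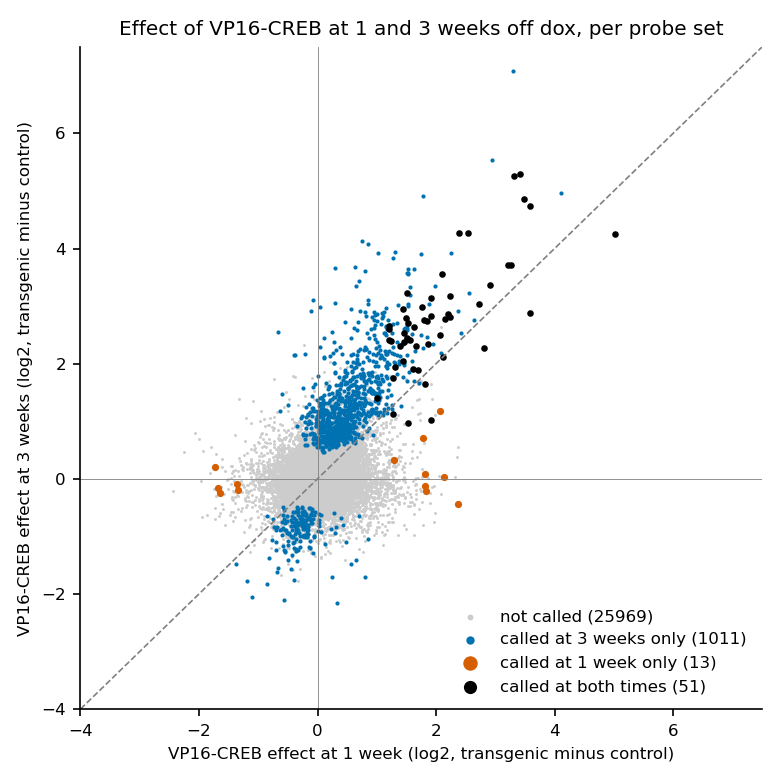
The effect of VP16-CREB at 1 week (x axis, log2) against its effect at 3 weeks (y axis, log2), 1 point for each of 27044 probe sets, with the line of equal effects dashed. The 51 probe sets called at both times lie in the upper right, the 1011 called at 3 weeks only spread along the y axis in both directions, and each of the 13 called at 1 week only is nearer to 0 on the y axis than on the x axis.

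Early and kept was defined as called at both times with the same sign and a 95% interval of the difference within 1 log2 unit of 0. It held 6 probe sets: Pdyn, Fyb, Mpo, Gbp2, D17H6S56E-5 and Psmb9. Pdyn encodes prodynorphin, the precursor of the dynorphin opioid peptides and a classical CREB target in neurons. Its intensity was 158 and 121 in the control pools and 818 and 1154 in the VP16-CREB pools at 1 week, and 149, 146 and 107 against 1245, 1028 and 1195 at 3 weeks. All VP16-CREB pools stood above all controls, and the VP16-CREB pools of the separate times overlapped. Pdyn was 6.62-fold higher at 1 week (adjusted p 0.000138) and 8.16-fold higher at 3 weeks (adjusted p 1.43e-06), a difference of 0.30 (95% interval -0.33 to 0.94). It was called at 1 week under each alternative run.

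Mpo, myeloperoxidase of neutrophils and monocytes, read 37.9 and 37.2 in the control pools and 146 and 169.6 in the VP16-CREB pools at 1 week, and 71.9, 55.1 and 68.4 against 184, 233 and 259.5 at 3 weeks, with effects of 1.82 ± 0.23 and 1.64 ± 0.19 and a difference of -0.18 (95% interval -0.82 to 0.47). S100a8, the other neutrophil gene that passed the filter on low values, had effects of -0.46 and 0.35 and was not called. Fyb, an adaptor protein of T cells and myeloid cells, read 37.7 and 49.4 in the control pools and 235 and 207 in the VP16-CREB pools at 1 week, and 69.3, 64.7 and 91 against 276, 358 and 449 at 3 weeks, and its effects were 2.11 and 2.11. The markers of T, B and NK cells stayed near the floor: of 15 on the array only Cd8a passed the filter, it was not called, and their summed intensity was 228 to 252 and 330.3 to 365 in control and VP16-CREB pools at 1 week and 386 to 442 and 580.3 to 644 at 3 weeks.

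Gbp2, an interferon-induced guanylate-binding protein, read 112 and 141 in the control pools and 558 and 326 in the VP16-CREB pools at 1 week, and 149.8, 114 and 179 against 516, 541 and 659 at 3 weeks, with a difference of 0.21 (95% interval -0.54 to 0.96). Psmb9, an immunoproteasome subunit, was 2.01-fold higher at 1 week (adjusted p 0.0498) and 2.64-fold higher at 3 weeks. D17H6S56E-5 read 114 and 129 in the control pools and 319 and 298 in the VP16-CREB pools at 1 week, and 123, 76.1 and 116 against 219.7, 220.4 and 272 at 3 weeks. Membership was sensitive to single arrays, although the 1-week calls of Pdyn and Mpo were made in each fit without an array. Without early control pool 1 or early VP16-CREB pool 1 the 1-week calls of Fyb, Gbp2, D17H6S56E-5 and Psmb9 were lost, and 1 to 6 probe sets were early and kept over the fits that left out an array, with 1 without early control pool 2 or without early VP16-CREB pool 1.

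Several other known CREB targets were estimated at like size at both times, though only Pdyn was called at 1 week. On the list of CRE-driven genes, 13 of 32 were higher at 3 weeks and 1 at 1 week, against 4.59% and 0.291% of all 12732 genes, each on its brightest probe set (5.45% in either direction at 3 weeks). The list's median effect was 0.30 at 1 week and 0.53 at 3 weeks, beside -0.014 and -0.0004 over all genes. Without early control pool 1 the list's 1-week median was 0.035. Members of any list that did not pass the filter on low values, or had no probe set, were not tested. The counts of later lists stand beside the same shares of all genes, and beside 0.864% lower at 3 weeks. Leaving out late VP16-CREB pool 3 reduced the 13 calls to 7. Fos, the immediate early AP-1 factor, read 1367 and 1525 in the control pools and 3215 and 3649.5 in the VP16-CREB pools at 1 week, and 1922, 1148 and 1718 against 3568, 4215 and 5350.3 at 3 weeks. Its effects were 1.24 ± 0.32 and 1.46 ± 0.26, a difference of 0.22 (95% interval -0.66 to 1.11). The groups did not overlap at either time.

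Pcsk1 encodes proprotein convertase 1, which cleaves prohormones, and read 88.3 and 133 in the control pools and 288 and 324 in the VP16-CREB pools at 1 week, and 140.0, 83.7 and 129 against 272, 282 and 319.6 at 3 weeks. Its effects were 1.41 and 1.27, with a difference of -0.15 (95% interval -1.08 to 0.78). For Bdnf, a neurotrophin, probe set 1422168_a_at had effects of 1.02 and 1.11, a difference of 0.087 (95% interval -0.87 to 1.04), and a second probe set had 0.19 and 0.50 and was not called. Crem, whose inducible repressor products feed back on CRE sites, had effects of 0.80 and 1.06 with a difference of 0.26 (95% interval -0.49 to 1.02). The 3-week calls of Bdnf, Crem and Pcsk1 were each lost without some single arrays. Each of these intervals includes 0 and is wider than 1 log2 unit.

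Of the 32 CRE-driven genes, 22 (68.8%) had larger estimates at 3 weeks, against 54.6% of all genes. None of them was called for the difference. Nfil3, a basic leucine zipper repressor, read 286 and 232 in the control pools and 424 and 469 in the VP16-CREB pools at 1 week, and 101, 77.2 and 162 against 498, 402 and 524 at 3 weeks. The late controls were lower than the early ones, while the VP16-CREB pools were close, and the difference was 1.25 (95% interval 0.27 to 2.23) with an adjusted p of 0.804. Fosb was 1.36-fold at 1 week and 2.88-fold at 3 weeks, called at 3 weeks only (adjusted p 0.00175). Atf3, a stress-induced bZIP factor, read 65.4 and 73 in the control pools and 387 and 345 in the VP16-CREB pools at 1 week, and 13.6, 10.5 and 46 against 468, 342 and 550.3 at 3 weeks, and here too the controls differed between the cohorts. Its difference was 1.68 (95% interval 0.14 to 3.21). Gal, the neuropeptide galanin, read 64.4 and 89.4 in the control pools and 41.1 and 62.5 in the VP16-CREB pools at 1 week, and 51.8, 54.5 and 92.2 against 105, 221 and 208 at 3 weeks: the VP16-CREB pools lay below the controls at 1 week and above them at 3 weeks. The immediate early gene list had medians of 0.15 and 0.20, with 5 of 27 called higher at 3 weeks and none at 1 week, or 3 without late control pool 2 or 3. Its 1-week median was 0.339 without early VP16-CREB pool 1 and -0.046 without pool 2. Egr1, a zinc finger factor of that class, had effects of -0.048 and -0.30.

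RefSeq promoter windows (GRCm38.p6, 250 bases before to 50 after the start) were matched by symbol for 10298 of the 12732 genes and searched on both strands for the full CRE TGACGTCA, for its shorter part TGACG, which every full CRE also holds, and for a motif like the interferon-stimulated response element, GAAA followed after any 2 bases by another GAAA. The full CRE was in 5 of 24 CRE-driven genes with a window (20.8%) and in 3.53% of all genes, and TGACG was in 83.3% against 34.9%. Among genes higher at 1 week the full CRE was in 1 of 41 (2.44%) and TGACG in 26.8%. Among genes called higher at 3 weeks but not at 1 week, the shares were 3.06% and 30.6%. Pdyn, called at both times, held neither the full CRE nor TGACG in its 2 windows. The windows of Pcsk1 and Fos are shown. Both hold matches and are CRE-driven genes called at 3 weeks with an estimate of like size at 1 week. Capitals mark the motif letters; the first stretch of capitals in Pcsk1 is the interferon motif on the opposite strand, and its other 2 are the full CRE and a separate TGACG.
Pcsk1 (chr13:75089607-75089906, plus strand): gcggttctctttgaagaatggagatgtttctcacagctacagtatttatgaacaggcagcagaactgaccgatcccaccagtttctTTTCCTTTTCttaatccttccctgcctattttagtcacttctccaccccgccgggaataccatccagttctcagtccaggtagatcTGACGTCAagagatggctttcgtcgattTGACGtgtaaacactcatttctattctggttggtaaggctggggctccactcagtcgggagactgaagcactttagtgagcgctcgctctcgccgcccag
Fos (chr12:85473640-85473939, plus strand): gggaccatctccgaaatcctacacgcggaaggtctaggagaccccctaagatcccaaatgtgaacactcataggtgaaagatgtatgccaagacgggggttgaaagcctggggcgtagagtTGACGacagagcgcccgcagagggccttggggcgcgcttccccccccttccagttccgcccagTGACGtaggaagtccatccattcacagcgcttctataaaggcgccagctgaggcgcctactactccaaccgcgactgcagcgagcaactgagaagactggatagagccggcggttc

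**Figure D2:**
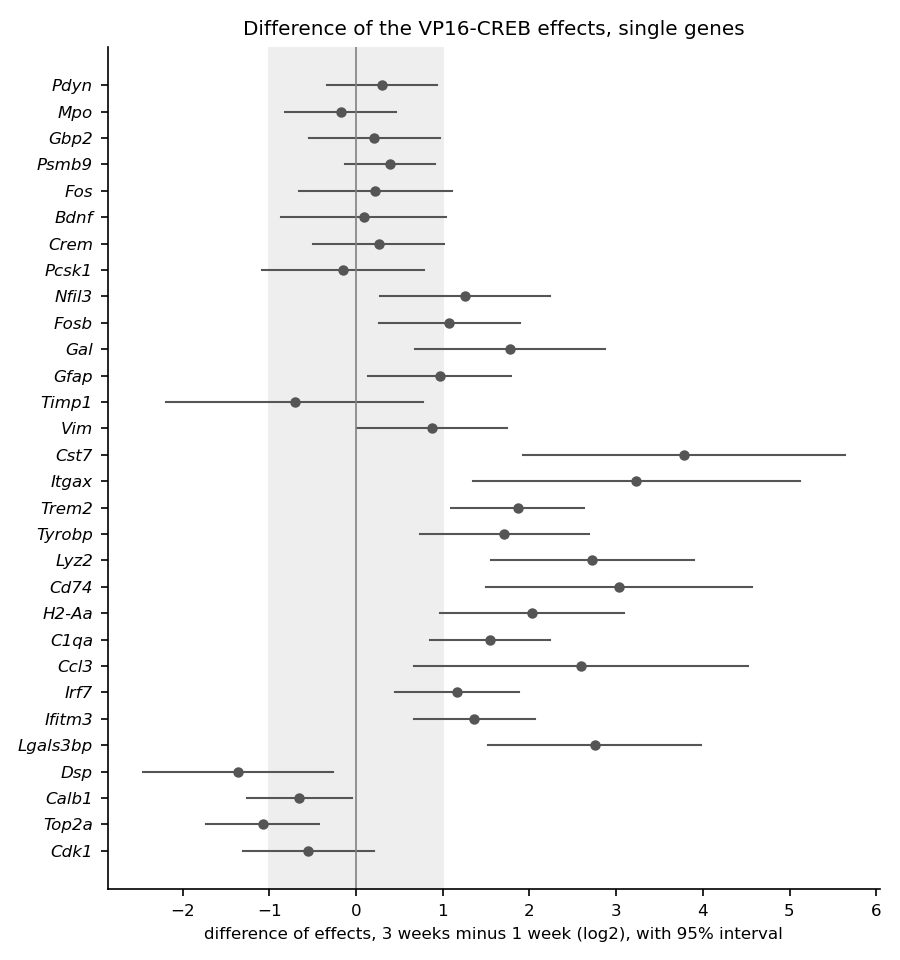
The difference of effects, 3 weeks minus 1 week (x axis, log2), with its 95% interval for 30 genes on their probe set of highest mean; the grey band spans 1 log2 unit to either side of 0. The intervals of Pdyn, Mpo, Gbp2 and Psmb9 lie inside the band, those of Cst7, Itgax, Trem2, Lyz2, Cd74 and Lgals3bp lie to the right of it, and that of Top2a lies below 0. None of the 30 genes was called for the difference.

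Microglia are the resident macrophages of brain tissue; in injury they lower or keep a homeostatic programme and switch on a disease-associated programme that depends on the lipid receptor Trem2 and its adaptor Tyrobp. Of the 25 genes of the disease-associated list, 23 were tested. At 1 week 3 of them were higher (Clec7a, Cd68 and Cd52), and at 3 weeks 18 were, against 0.291% and 4.59% of all genes. The median effect was 0.85 at 1 week and 2.13 at 3 weeks, and the estimate was larger at 3 weeks for 22 of 23, against 54.6% of all genes. The count at 3 weeks was 18 in each fit without an array, while that at 1 week was 0 without either early VP16-CREB pool. Over the list, the mean log2 value stood 0.97 and 1.05 above controls in the early VP16-CREB pools and 2.16 to 2.44 above in the late ones, while no control pool departed from its group mean by more than 0.062.

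Cst7, cystatin F, an inhibitor of lysosomal cathepsins, had the largest difference in the list. It read 17.1 and 5.65 in the control pools and 139 and 265 in the VP16-CREB pools at 1 week, and 6.55, 7.89 and 23.4 against 2906, 2245 and 3738 at 3 weeks. Each late VP16-CREB pool was above each early one, and the late effect was 7.08 ± 0.55 against 3.30 ± 0.67. The difference was 3.79 (95% interval 1.93 to 5.64), with an unadjusted p of 0.000673 and an adjusted p of 0.264. Itgax, the integrin CD11c, read 44.1 and 22.7 in the control pools and 74.6 and 58 in the VP16-CREB pools at 1 week, and 37.5, 71.4 and 10.3 against 495, 727 and 1017 at 3 weeks, a difference of 3.23 (95% interval 1.35 to 5.12). Lyz2, lysozyme of myeloid cells, read 238 and 329 in the control pools and 369.8 and 578 in the VP16-CREB pools at 1 week, and 211, 226 and 279.6 against 2484, 2286 and 3299 at 3 weeks. Its early VP16-CREB pools lay above the controls, and its difference was 2.73 (95% interval 1.56 to 3.89). Cst7, Itgax and Lyz2 were not called for the difference.

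Trem2 read 228 and 212 in the control pools and 455 and 428 in the VP16-CREB pools at 1 week, and 233, 197 and 284 against 1692, 1634 and 1928 at 3 weeks, so that it was 1.97-fold higher at 1 week (adjusted p 0.32, not called) and 7.16-fold higher at 3 weeks (adjusted p 6.27e-06). The spread within groups was small beside both steps. Tyrobp gave 0.97 and 2.68. Clec7a, the beta-glucan receptor dectin-1, was already 10.7-fold higher at 1 week (adjusted p 0.0195) and 39-fold at 3 weeks. Cd52, a small surface glycoprotein of leukocytes, read 163 and 191 in the control pools and 963 and 957 in the VP16-CREB pools at 1 week, and 159, 192 and 135 against 3082, 2948 and 3933 at 3 weeks, called at both times with a difference of 1.90 (95% interval 0.99 to 2.80). Fth1, the ferritin heavy chain and the member with the highest mean intensity, had effects of 0.18 and -0.023 and was not called.

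Homeostatic microglia genes had positive estimates too. Of 14 tested (15 listed), none was called at 1 week and 11 were higher at 3 weeks, with medians of 0.53 and 1.08. Cx3cr1, the fractalkine receptor, read 869 and 622 in the control pools and 1167 and 1152 in the VP16-CREB pools at 1 week, and 969.7, 1049.6 and 1007 against 1859, 2544 and 2924 at 3 weeks, with effects of 0.65 and 1.24. The purinergic receptor gene P2ry13 gave 0.54 and 0.94, and the CSF1 receptor gene Csf1r gave 0.52 and 1.33, with overlapping pools at 1 week. The 11 calls fell to 5 without late VP16-CREB pool 3. The largest difference in the list was that of Csf1r, also its member of highest mean intensity, at 0.80 (95% interval -0.016 to 1.62).

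Macrophage and Fc receptor genes had the most 1-week calls after reactive astrocyte genes. Of 24 tested (25 listed), 4 were higher at 1 week (Ptprc, Cd68, Ly86 and Fcgr3) and 21 at 3 weeks, against 0.291% and 4.59% of all genes. All 24 estimates were larger at 3 weeks. The medians were 1.01 and 2.00. None of the 4 calls was left without either early VP16-CREB pool. Ptprc, the pan-leukocyte antigen CD45, read 131 and 202 in the control pools and 434 and 349 in the VP16-CREB pools at 1 week, and 153, 145 and 150.2 against 945, 857 and 1066 at 3 weeks, a difference of 1.38 (95% interval 0.79 to 1.98). Fcgr3, a low-affinity IgG receptor, was 2.36-fold higher at 1 week and 5.25-fold at 3 weeks. Of 9 neutrophil and monocyte markers 2 passed the filter, and their summed intensity was 309 to 346 and 364 to 511 in control and VP16-CREB pools at 1 week and 235 to 422 and 489.5 to 568 at 3 weeks. The part of other blood cells in these values was not tested. Itgam, the integrin CD11b, and Spi1, the myeloid factor PU.1, had estimates of like size at both times, 1.15 and 1.30, and 1.00 and 1.16, each called at 3 weeks only. Fcgr2b is measured by more than 1 probe set, and 1435477_s_at, called at both times, had a difference of 1.71 (95% interval 1.10 to 2.32) with an adjusted p of 0.126.

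**Figure D3:**
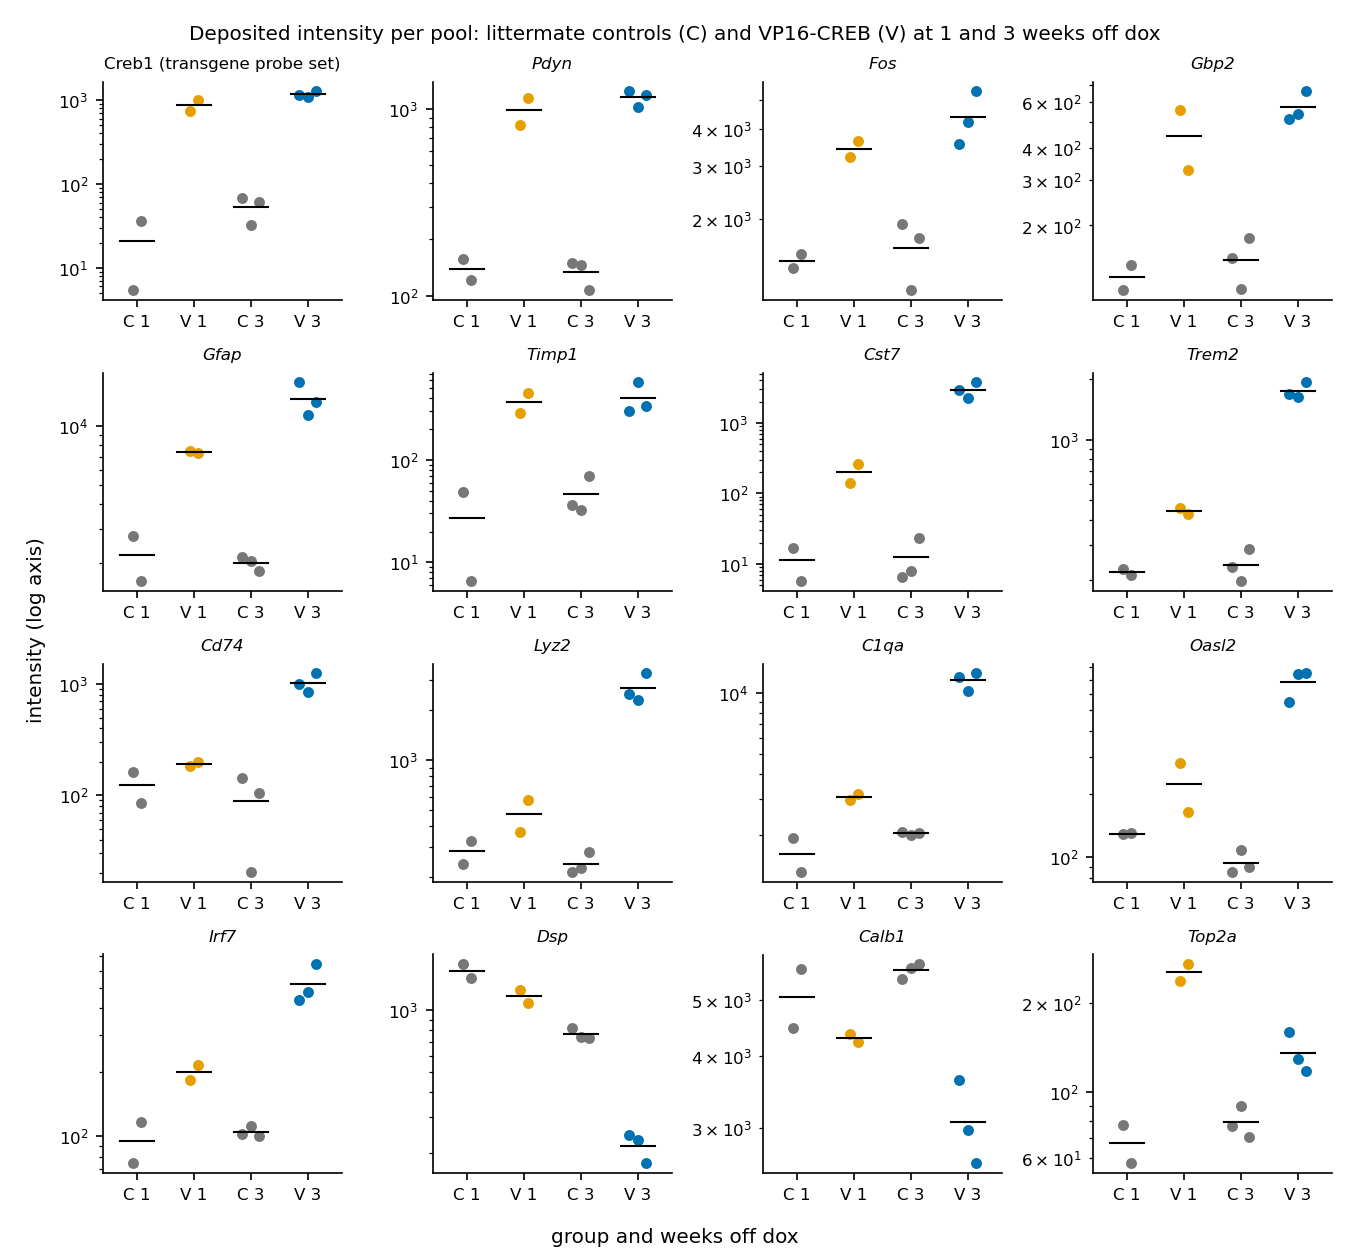
Deposited intensity (y axis, log scale) of 16 genes in each pool of littermate controls (C, grey) and VP16-CREB mice (V) at 1 week (orange) and 3 weeks (blue) off dox, with the mean of each group as a line. Creb1, Pdyn and Fos stand at similar levels in both VP16-CREB groups, Cst7, Trem2, Cd74, Lyz2, C1qa, Oasl2 and Irf7 climb further at 3 weeks, Dsp and Calb1 go below controls mainly at 3 weeks, and Top2a is highest at 1 week.

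Complement, chemokine and Toll-like receptor genes also had larger medians at 3 weeks. C1qa, C1qb and C1qc encode the initiating complex of complement, made in brain mainly by microglia. C1qa read 1922 and 1306 in the control pools and 2964 and 3177 in the VP16-CREB pools at 1 week, and 2061, 1989 and 2053 against 11949, 10272 and 12469 at 3 weeks, effects of 0.95 ± 0.25 and 2.50 ± 0.20, with a difference of 1.55 (95% interval 0.86 to 2.24) and an adjusted p of 0.197. Of 10 complement genes tested (16 listed), none was called at 1 week and 7 were higher at 3 weeks, with medians of 0.87 and 1.97. Of 13 chemokine genes tested (17 listed), 8 were higher and 1 lower at 3 weeks, none at 1 week on the brightest probe sets, with medians of 0.66 and 1.78. A second probe set of the chemokine Ccl6, 1420249_s_at, was called at 1 week too, at 2.09 (adjusted p 0.014) and 3.55, while the brightest one gave 1.53 (adjusted p 0.0739) and 3.57. Ccl3, a chemokine for monocytes, read 11.2 and 36.7 in the control pools and 213 and 255 in the VP16-CREB pools at 1 week, and 3.63, 3.28 and 2.07 against 554, 549 and 695 at 3 weeks, a difference of 2.59 (95% interval 0.67 to 4.52). Cxcl12, the chemokine that was lower, was alike at both times, at -0.73 and -0.83, with an adjusted p of 0.00891 at 3 weeks that rose to 0.0505 without late control pool 3. Tlr2, a receptor for bacterial lipopeptides, was called at both times, at 1.39 and 2.31, but its 1-week call was lost in 9 of the 10 fits without an array.

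MHC class II genes had the largest median difference of all lists, 1.74, over 9 genes tested (12 listed). Their median effect was 0.66 at 1 week and 2.13 at 3 weeks, with 1 and 7 called higher and all 9 estimates larger at 3 weeks. Cd74, the invariant chain, read 162 and 85.9 in the control pools and 182 and 198 in the VP16-CREB pools at 1 week, and 142, 20.2 and 105 against 997, 848 and 1249 at 3 weeks. The early VP16-CREB pools stood just above their controls and the late ones several-fold above theirs, with a difference, not called, of 3.03 (95% interval 1.503 to 4.57). H2-Ab1, a class II beta chain, departed from this by being called at 1 week: it read 54.3 and 78.5 in the control pools and 804 and 861 in the VP16-CREB pools at 1 week, and 29.1, 108 and 63.8 against 2001, 1894 and 2189 at 3 weeks and was 11.2-fold and 29.1-fold higher. Of its other probe sets, 1451721_a_at was also called at both times, while 1425477_x_at was not called at 1 week (1.78, adjusted p 0.199) and had a difference of 3.12 (95% interval 1.87 to 4.37). H2-Aa, the alpha chain that pairs with it, read 216 and 165 in the control pools and 546 and 577 in the VP16-CREB pools at 1 week, and 72.2, 151 and 126 against 1241, 1299.5 and 1765 at 3 weeks, so its late controls were below its early ones. Ctss, the cathepsin that trims the invariant chain, had effects of 0.66 and 2.05, a difference of 1.39 (95% interval 0.77 to 2.01).

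MHC class I and immunoproteasome genes had medians of 0.35 and 1.09, with 2 and 9 of 16 called higher and all 16 estimates larger at 3 weeks. Neither 1-week call was left when any 1 of the 4 early arrays was omitted. Among named probe sets, H2-K1 1451931_x_at came nearest to a call for the difference, with 2.25 (95% interval 1.58 to 2.92) and an adjusted p of 0.0714. It read 929 and 896 in the control pools and 1008 and 879.7 in the VP16-CREB pools at 1 week, and 749, 1009 and 883 against 3849.6, 4209 and 5013 at 3 weeks: the early groups overlapped and the late ones were far apart. Class I genes are near-identical copies and the suffix marks probes that match several of them. Another H2-K1 probe set, 1425336_x_at, was called at both times, at 1.45 and 2.52, and 1450534_x_at had effects of 1.91 and 1.03, so the time course of H2-K1 itself is uncertain. Besides the list's 2 calls, H2-Q5 1430802_at, also of class I, was called at 1 week (adjusted p 0.000138) and at 3 weeks. Its effects were 3.27 and 3.72, a difference of 0.45 (95% interval -0.29 to 1.19). Its control pools read only 3.2 to 7.1. Psmb8, another immunoproteasome subunit, gave 0.70 and 2.00, beside 1.01 and 1.40 for Psmb9. The 20 constitutive proteasome genes tested had medians of 0.090 and -0.032, with no call at either time.

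Most interferon response genes were called higher at 3 weeks, and only Gbp2 at 1 week. Of 31 tested (38 listed), 1 was higher at 1 week and 23 at 3 weeks, against 0.291% and 4.59% of all genes. None was called for the difference. At 1 week 29 estimates were already positive, with medians of 0.48 and 1.34, and 30 of 31 estimates were larger at 3 weeks. Without late VP16-CREB pool 3 the count called higher at 3 weeks was 17. Oasl2, a 2'-5' oligoadenylate synthetase-like protein, read 129 and 131 in the control pools and 281 and 164 in the VP16-CREB pools at 1 week, and 84.7, 108 and 89.9 against 547, 748 and 749 at 3 weeks, effects of 0.69 ± 0.24 and 2.72 ± 0.19. Its difference was 2.03 (95% interval 1.37 to 2.69), with an adjusted p of 0.123. Irf7, a transcription factor that amplifies interferon production, gave 1.02 and 2.19, and Ifit3, an antiviral RNA-binding protein, read 368 and 399.9 in the control pools and 691 and 546 in the VP16-CREB pools at 1 week, and 409.8, 386 and 312 against 1329, 1738 and 1717 at 3 weeks. Lgals3bp, a secreted glycoprotein that binds galectin-3, read 735 and 449.7 in the control pools and 768 and 654 in the VP16-CREB pools at 1 week, and 300.1, 325 and 311 against 2459, 2585 and 2933 at 3 weeks; its early groups overlapped and its difference was 2.75 (95% interval 1.53 to 3.98). Ifitm3, a membrane protein that blocks viral entry, had effects of 0.64 and 2.01. Ifi27, the member with the highest mean intensity, had 0.062 and 0.66 and was not called.

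The interferon motif, GAAA repeated after 2 bases, was in the window of 14 of 23 interferon response genes (60.9%) and in 3.57% of all genes. It was in 8.78% of the 490 genes called higher only at 3 weeks and in 3 of the 41 higher at 1 week. The windows of Gbp2, early and kept, and of Ifit3 and Ifitm3, called at 3 weeks only, are shown since all hold the motif, in capitals on either strand. None of these genes was called for the difference of effects. A match is a description of the letters and not a binding site.
Gbp2 (chr3:142620413-142620712, plus strand): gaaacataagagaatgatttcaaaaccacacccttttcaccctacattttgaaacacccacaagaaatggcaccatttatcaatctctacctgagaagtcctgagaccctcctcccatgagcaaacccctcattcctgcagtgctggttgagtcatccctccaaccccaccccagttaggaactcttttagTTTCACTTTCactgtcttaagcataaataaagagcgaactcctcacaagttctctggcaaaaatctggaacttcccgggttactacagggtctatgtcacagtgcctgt
Ifit3 (chr19:34583279-34583578, plus strand): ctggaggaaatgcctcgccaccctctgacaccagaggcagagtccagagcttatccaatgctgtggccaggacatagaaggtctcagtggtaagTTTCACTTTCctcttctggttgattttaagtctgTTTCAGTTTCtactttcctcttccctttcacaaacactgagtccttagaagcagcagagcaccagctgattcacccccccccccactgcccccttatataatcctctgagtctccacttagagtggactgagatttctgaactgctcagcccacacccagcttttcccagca
Ifitm3 (chr7:141010695-141010994, minus strand): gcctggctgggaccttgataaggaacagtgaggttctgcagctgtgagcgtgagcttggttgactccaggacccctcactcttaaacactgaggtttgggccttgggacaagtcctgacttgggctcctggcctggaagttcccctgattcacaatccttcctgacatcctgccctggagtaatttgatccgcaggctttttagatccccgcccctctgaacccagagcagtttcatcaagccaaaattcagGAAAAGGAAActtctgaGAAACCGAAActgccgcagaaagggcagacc

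Reactive astrocyte genes were already called at 1 week and had larger estimates at 3 weeks. Astrocytes respond to injury by raising intermediate filaments and acute-phase proteins. Of 23 genes tested (27 listed), 5 were higher at 1 week (Gfap, Serpina3n, Timp1, S1pr3 and Osmr) and 15 at 3 weeks, with medians of 0.64 and 1.29. The list's mean stood 0.84 and 0.91 above controls in the early VP16-CREB pools and 1.47 to 1.65 in the late ones. None of the 5 early calls was left without early VP16-CREB pool 1. A further probe set, 1450641_at of Vim, the intermediate filament vimentin, was also called at both times, at 1.47 and 2.37, though the brightest Vim probe set was not called at 1 week.

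Gfap, the astrocyte intermediate filament, read 2766 and 1612 in the control pools and 7464 and 7292 in the VP16-CREB pools at 1 week, and 2155, 2049 and 1822 against 16756, 11368 and 13374 at 3 weeks. It was 3.48-fold higher at 1 week (adjusted p 0.0229) and 6.79-fold at 3 weeks (adjusted p 1.39e-05), with a difference of 0.96 (95% interval 0.14 to 1.78). Serpina3n, a secreted protease inhibitor, read 923 and 711 in the control pools and 2460.3 and 1995 in the VP16-CREB pools at 1 week, and 656, 534 and 603 against 4312, 5352 and 4462 at 3 weeks, a difference of 1.51 (95% interval 0.91 to 2.12). Osmr, the oncostatin M receptor, had effects of 1.51 ± 0.19 and 2.44 ± 0.16. Timp1, an inhibitor of metalloproteinases, had a smaller estimate at 3 weeks that turned on a single array: it read 48.3 and 6.5 in the control pools and 289 and 451 in the VP16-CREB pools at 1 week, and 36.6, 32.1 and 70.4 against 299, 572 and 335 at 3 weeks, 12-fold and then 7.33-fold, with a difference of -0.71 (95% interval -2.19 to 0.78). Early control pool 2 read 6.5, and without it the difference was 0.203. Of 16 homeostatic astrocyte genes, 3 were higher at 3 weeks (Aqp4, Kcnj10 and Mlc1) and none at 1 week, with medians of 0.11 and 0.51, and 1 was called without late VP16-CREB pool 3.

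**Figure D4:**
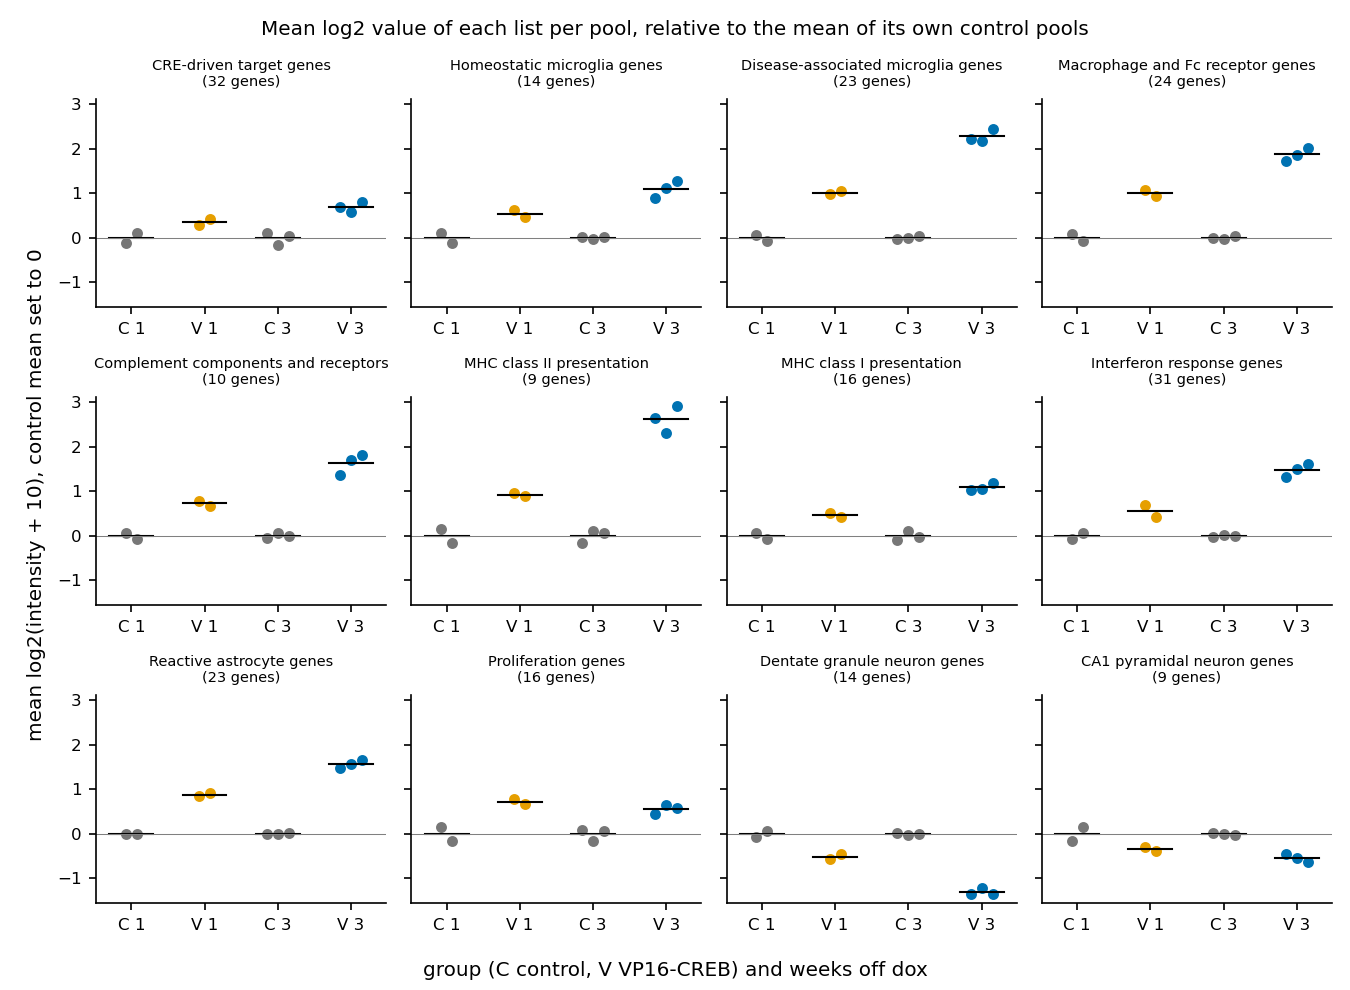
Mean log2(intensity + 10) of 12 gene lists in each pool (y axis), with the mean of the control pools of the same time set to 0, for controls (C, grey) and VP16-CREB mice (V) at 1 week (orange) and 3 weeks (blue). In the disease-associated microglia list the early VP16-CREB pools lie at 0.97 and 1.05 and the late ones at 2.16 to 2.44, the proliferation list lies at 0.78 and 0.66 and then at 0.44 to 0.66, and the dentate granule list lies at -0.56 and -0.46 and then at -1.35 to -1.21.

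Genes of dentate granule neurons were lower, mainly at 3 weeks. Granule neurons fill the dentate gyrus and relay input from entorhinal cortex to CA3. Of 14 genes tested (15 listed), none was called at 1 week and 12 were lower at 3 weeks, against 0.00785% and 0.864% of all genes, with medians of -0.48 and -1.37. The estimate was more negative at 3 weeks for all 14. Without late control pool 1 or late control pool 3, 8 were called. The summed intensity of the list was 19510 to 25460 in early and 23830 to 24160 in late controls, 15820 to 16440 in early VP16-CREB pools and 9738 to 11070 in late ones.

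Prox1, the homeobox factor that sets granule cell identity, read 213 and 263 in the control pools and 224 and 207 in the VP16-CREB pools at 1 week, and 413, 368 and 372 against 177, 151 and 158 at 3 weeks. Prox1 controls thus read higher in the late cohort than in the early one. The early groups overlapped and the late groups did not, and the difference was -1.06 (95% interval -1.57 to -0.56) with an unadjusted p of 0.000531 and an adjusted p of 0.237. Dsp, desmoplakin, read 1674 and 1433 in the control pools and 1262 and 1081 in the VP16-CREB pools at 1 week, and 819, 738 and 729 against 245, 232 and 179 at 3 weeks. The controls themselves were lower in the late cohort, and the effect there was -1.77 ± 0.32 against -0.40 ± 0.39. Lct gave -0.45 and -1.56, a difference of -1.11 (95% interval -1.68 to -0.53). C1ql3, the member with the highest mean intensity, gave -0.56 and -1.27. Calb1, calbindin, read 4472 and 5644 in the control pools and 4357 and 4230.3 in the VP16-CREB pools at 1 week, and 5424, 5668 and 5749.6 against 3628, 2983 and 2609.6 at 3 weeks, with a difference of -0.65 (95% interval -1.26 to -0.045), and its 3-week call (adjusted p 0.0117) was lost without late control pool 3 or either of late VP16-CREB pools 2 and 3.

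For some granule cell genes the effect at 1 week was already sizeable in estimate. Trpc6, a cation channel, read 163 and 200.2 in the control pools and 61.9 and 65 in the VP16-CREB pools at 1 week, and 181, 155 and 194 against 38.5, 79.4 and 59 at 3 weeks, with effects of -1.38 and -1.47 and a difference of -0.099 (95% interval -1.13 to 0.94). C1ql2, a secreted synaptic organizer of mossy fibres, read 1006 and 985 in the control pools and 402 and 456 in the VP16-CREB pools at 1 week, and 1198, 1082 and 1049 against 263, 352 and 338 at 3 weeks. Its VP16-CREB pools were well below controls at both times, though the effect of -1.20 ± 0.38 at 1 week had an adjusted p of 0.485. Lrrtm4, a postsynaptic adhesion protein of granule cells, gave -0.85 and -1.83.

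Other neuronal lists had smaller differences. All 9 CA1 genes had negative estimates at both times, with medians of -0.35 and -0.56, and none was called. Wfs1 had effects of -0.38 and -0.67, and Ccn3, the member with the highest mean intensity, -0.45 and -0.62. The CA3 list had medians of -0.12 and -0.13, and of its 11 genes only Nptx1 was called, at 3 weeks (-0.74), a call lost when any 1 of the 6 late arrays was left out. Among 15 interneuron genes, Slc32a1, the vesicular GABA transporter, and Npy were higher at 3 weeks, against 4.59% of all genes. Slc32a1 read 1331 and 1331 in the control pools and 1651 and 1767 in the VP16-CREB pools at 1 week, and 1034, 1104 and 993 against 2346, 2431 and 2618 at 3 weeks, with a difference, not called, of 0.87 (95% interval 0.46 to 1.29). Of 32 potassium channel genes, 5 were lower at 3 weeks (Kcnab1, Kcnd2, Kcnip2, Kcnip4 and Kcns2), against 0.864% of all genes. None was lower at 1 week, and the medians were -0.18 and -0.32. None of these 5 calls was left without late control pool 1 or 2 or late VP16-CREB pool 2 or 3. Kcnip2, a subunit that modulates A-type channels, gave -0.51 and -0.74. Of 26 neuropeptide and processing genes, 6 were higher at 3 weeks, against 4.59% of all genes, and Pdyn alone at 1 week. Without late VP16-CREB pool 3 the 6 calls fell to 2. Of 27 genes of glutamate receptors and scaffolds, none was called at either time, and the medians were -0.23 and -0.30.

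Proliferation genes had a larger median effect at 1 week than at 3 weeks, 0.70 against 0.50, over 16 genes tested of 20, and 2 were called higher at each time. That order turned on a single array: without early control pool 2 the 1-week median was 0.41. Of the 16 estimates, 7 were larger at 3 weeks. Top2a, the topoisomerase of dividing cells, read 77.4 and 57.3 in the control pools and 239 and 271 in the VP16-CREB pools at 1 week, and 76.6, 89.7 and 70.4 against 159.7, 129.8 and 118 at 3 weeks. It was 3.44-fold higher at 1 week (adjusted p 0.00584) and 1.63-fold at 3 weeks (adjusted p 0.061), a difference of -1.08 (95% interval -1.73 to -0.42) with an unadjusted p of 0.00342 and an adjusted p of 0.512. The 1-week call was lost without early control pool 2 or either early VP16-CREB pool. Cdk1, the mitotic kinase, was called at both times, at 1.52 and 0.97, the 1-week call being lost in 9 of the 10 fits without an array, and Pcna, the replication clamp, had effects of 0.86 and 0.89, called at 3 weeks. Ccna2 and Cdc20 had 0.94 and 1.20 at 1 week and 0.25 and 0.48 at 3 weeks, with none of these called.

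The class of faded effects held a single probe set, 1458916_at, which has no gene symbol. It measured 4.91 and 6.13 in the control pools and 52.9 and 38.8 in the VP16-CREB pools at 1 week, and 171, 144 and 136 against 131, 124 and 128 at 3 weeks. The effect was 1.84 ± 0.18 at 1 week (adjusted p 0.000733) and -0.21 ± 0.15 at 3 weeks, with a difference of -2.05 (95% interval -2.56 to -1.54) and an adjusted p of 0.0201. The 1-week controls were near the lower end of the scale, and the 3-week controls were higher than any VP16-CREB pool. The call for the difference was lost in 9 of the 10 fits without an array, all but that without early VP16-CREB pool 2. It was also lost with a pseudocount of 25 or 100, without the filter and with arrays centred on their median. The trended and robust fit, the replicate block and a threshold of 0.01 lost it too.

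Low early control values were found in most of the 13 probe sets called at 1 week only. In 9 of the 13 the early control mean was under 50, against 8.92% of all probe sets tested. In 12 the early control mean was below that of the late controls, against 55.5% of all. Sipa1l1 probe set 1440119_at, for a Rap GTPase-activating protein, read 4.68 and 4.32 in the control pools and 75.9 and 55.7 in the VP16-CREB pools at 1 week, and 83.7, 174 and 71.5 against 124, 68.4 and 43.9 at 3 weeks, while the other 3 Sipa1l1 probe sets tested showed no such step. Odf2 1444101_at, lower at 1 week, read 31.7 and 34.8 in the control pools and 3.96 and 2.1 in the VP16-CREB pools at 1 week, and 87.4, 100.5 and 85 against 116, 103 and 100.1 at 3 weeks. Cd180, a Toll-like receptor homologue of B cells and macrophages, had effects of 2.07 and 1.18, the latter not called. Whether the level of the early controls has a part in these calls was not tested.

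None of the 10 named probe sets nearest to a call in either direction reached an adjusted p under 0.05. Those with positive differences were H2-K1, Oasl2, Odf2, Fcgr2b and C1qb 1437726_x_at, at 1.69, with adjusted p of 0.0714 to 0.126. Those with negative ones were Msmo1 (-2.61), a sterol oxidase of cholesterol synthesis, Sipa1l1 (-2.81), Urgcp (-1.87), Pank1 (-1.33), a kinase of coenzyme A synthesis, and 1700086L19Rik (-1.09), with adjusted p of 0.126 to 0.192. Msmo1 read 8.82 and 8.67 in the control pools and 43.6 and 53 in the VP16-CREB pools at 1 week, and 80.4, 114 and 108 against 45.4, 37.7 and 55 at 3 weeks, above controls at 1 week and below them at 3 weeks.

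**Figure D5:**
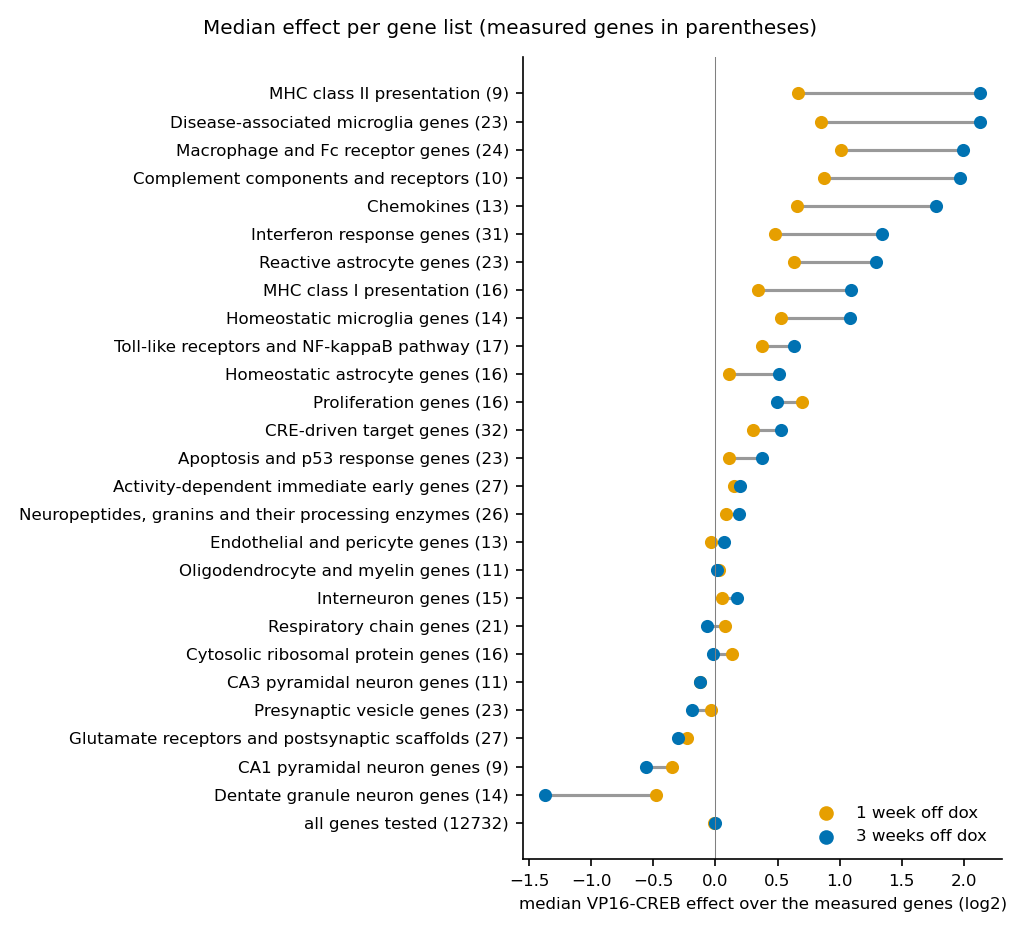
Median effect of VP16-CREB (x axis, log2) over the measured genes of 26 lists and over all genes, at 1 week (orange) and 3 weeks (blue), with the number of genes in parentheses. The microglial, immune and reactive astrocyte lists lie to the right at 1 week and further right at 3 weeks, dentate granule genes lie furthest left, proliferation genes are further right at 1 week than at 3 weeks, and all genes lie near 0.

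Several lists had no call at either time: oligodendrocyte and myelin genes (11 tested, medians of 0.029 and 0.016), endothelial and pericyte genes (13 tested, -0.032 and 0.071), respiratory chain genes (21 tested, 0.078 and -0.068) and cytosolic ribosomal protein genes (16 tested, 0.14 and -0.020). Choroid plexus genes varied between pools, with a summed intensity of 36540 to 48470 over the early pools and 7305 to 37770 over the late ones, and none of 10 was called. The cohorts differed in controls as well: the list's mean log2 value was 10.52 and 10.21 in early and 7.39, 8.12 and 8.33 in late controls. Their part in the differences was not tested. Apoptosis and p53 response genes had 1 call at 1 week and 5 at 3 weeks of 23, all higher, against 0.291% and 4.59% of all genes. Pmaip1, the pro-apoptotic BH3-only protein Noxa, was called at both times and read 31 and 32.8 in the control pools and 152 and 205 in the VP16-CREB pools at 1 week, and 65.1, 62.6 and 60.2 against 351, 484 and 688 at 3 weeks. Its 1-week call was lost without early VP16-CREB pool 2.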

How the data were processed

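Total RNA from pooled mouse hippocampi was measured on Affymetrix Mouse Genome 430 2.0 arrays. The deposited values are linear intensities; per the submitters' processing notes, MAS5 was the authors' tool. In R 4.3.3, probe sets above the median of all values (99.1) on at least 2 arrays were kept (27044 of 45101, leaving out 64 controls), and log2(intensity + 10) was fitted with limma 3.58.1 over all 16 arrays with a coefficient per group. P-values were adjusted by Benjamini-Hochberg over all probe sets; calls needed an adjusted p under 0.05. Folds are on the log2(intensity + 10) scale and understate changes of low values. Symbols came from the platform annotation, updated through RefSeq identifiers: 23141 probe sets tested had 1 symbol. Lists take each gene's brightest probe set (by mean). By rule, probe sets named were those called for the difference (with fewer than 5 in a direction, the 5 of smallest p), the classes early and kept and faded, list members called for the difference, else that of highest mean, and Creb1, Crem, Pdyn and Bdnf; other genes were named after their values were seen. The comparison, members and gene lists were chosen with earlier results of these data known. Labels do not tie pools to litters, so p-values measure the spread between pools. The reported fit did not pair pools by replicate number. Deviations of same-numbered pools correlated at 0.153 at 1 week and at -0.164, -0.228 and 0.218 at 3 weeks. With 2 or 3 pools per group these values cannot decide whether the numbers pair the pools. The fit was tested on simulated data. The number of arrays limits precision. Alternatives changed the pseudocount, filter, normalization, arrays fitted and thresholds, or left out an array. Figures used Python 3.11.15 with matplotlib 3.10.9.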

Additional observations from a re-analysis of the deposited data

Results flagged for a closer look

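The probe set 1458916_at differed between the times by the test of the difference itself, at -2.05 (effects of 1.84 and -0.21, adjusted p 0.0201 in limma). For a further 15 results every VP16-CREB pool lay on one side of the controls at 1 week and on the other side at 3 weeks, while the test of the difference did not pass (adjusted p of 0.126 to 1). Over all 27044 probe sets, 387 (1.43%) had such opposite pools. The 15 come from a search of the probe sets named by rule and the list members only. Whether they exceed that share was not tested. Higher at 1 week and lower at 3 weeks were Msmo1 (-2.61), Urgcp (-1.87), Pank1 (-1.33), 1700086L19Rik (-1.09) and Grm3 (-0.35), a metabotropic glutamate receptor. All of these but Grm3 had been named for the small p of their difference, which by itself favours opposite sides. Lower at 1 week and higher at 3 weeks were galanin, Gal (1.77), the small GTPase Gem (1.43), Nptx2 (1.31), Flt1 (1.06), Ly96 (0.86), Tnfaip3 (0.69), Prkcd (0.65), Aen (0.59), Igfbp5 (0.52) and Cd109 (0.50). Of the 15, Gem, Gal, Pank1 and 1700086L19Rik had an effect at 3 weeks that passed its own test, and none had one at 1 week. Outliers within groups were not tested, since the groups hold 2 or 3 pools.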

How the results depend on the processing

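The counts given above were 64 probe sets called at 1 week, 1062 at 3 weeks, 51 at both, 1 for the difference, 6 early and kept and 1 faded. Over the fits that left out 1 array each, these were 16 to 58, 584 to 1086, 12 to 46, 0 to 5 (0 to 4 higher and 0 to 1 lower), 1 to 6 and 0 to 4, with 0 to 1 grown and 0 to 0 opposed. In the same order, with grown effects added where there were any, the other settings gave the following. With no pseudocount and a floor of 1 the counts were 70, 968, 45, 2 (1 higher, 1 lower), 6 and 2. A pseudocount of 25 gave 66, 1145, 58, 0, 9 and 0, and a pseudocount of 100 gave 78, 1380, 72, 29 (28 higher, 1 lower), 22 and 0, with 29 grown. Without the filter they were 32, 798, 22, 0, 3 and 0, and with a filter on the mean 65, 1008, 57, 0, 9 and 0. Quantile normalization gave 50, 1336, 42, 21 (18 higher, 3 lower), 1 and 1, with 20 grown, and centring arrays on their median gave 50, 896, 38, 0, 3 and 0. Fitting only the 10 VP16-CREB cohort arrays gave 97, 1191, 61, 9 (6 higher, 3 lower), 6 and 4, with 3 grown and 1 opposed. A trended and robust fit gave 56, 1141, 50, 1 (higher), 3 and 0, with 1 grown, and 1 probe set per gene gave 59, 904, 53, 0, 7 and 0. Array weights gave 31, 4137, 29, 3 (2 higher, 1 lower), 3 and 1, with 2 grown. A threshold of 0.1 gave 113, 1478, 79, 2 (1 higher, 1 lower), 12 and 1, with 1 grown and 1 opposed, and 0.01 gave 17, 553, 15, 0, 3 and 0. An interval of 1.5 log2 units in the class definition gave 18 early and kept and 1 faded. The fit with the replicate number as a block gave 23, 859, 19, 0, 3 and 0, and whether these numbers pair the pools is not known. Where a setting left no call for the difference, 1349 probe sets had an unadjusted p under 0.05 in the reported fit. No named value reversed its called direction. Of the 64 calls at 1 week, 12 were made in every fit without an array. The cause of these shifts was not tested. Low signal limits the early cohort, in which 38.5 to 42% of intensities were under 50.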

Other observations

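Of 27 growth factor, receptor and binding protein genes tested, 18 (66.7%) had larger estimates at 3 weeks, against 54.6% of all genes. Besides Bdnf, described above, 6 were higher at 3 weeks (Igfbp2, Inhba, Fst, Tgfb1, Tgfbr1 and Tgfbr2) and none at 1 week, with medians of 0.043 and 0.26. Over all genes, 4.59% were higher at 3 weeks. Tgfbr2, the type 2 receptor for TGF-beta, read 730.1 and 787 in the control pools and 895 and 1028 in the VP16-CREB pools at 1 week, and 529, 484 and 525 against 1209, 1506 and 1661 at 3 weeks, a difference, not called, of 1.14 (95% interval 0.61 to 1.68). Dgkk, a diacylglycerol kinase, was among the largest effects at 1 week and was called at both times; its probe set 1442865_at read 91.7 and 97.6 in the control pools and 1293 and 1196 in the VP16-CREB pools at 1 week, and 43.4, 36.2 and 59.3 against 1113, 1499 and 1912 at 3 weeks, with a difference of 1.16 (95% interval 0.40 to 1.91). The controls were lower in the late cohort, and the VP16-CREB pools overlapped between the times. Cdkn1a, the cell cycle inhibitor p21, had effects of 0.97 and 2.43, called at 3 weeks only. Oligodendrocyte precursor genes had no call at either time among 9 tested, with medians of 0.091 and 0.24.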
